A study of Homo sapiens with 2 samples.

Results

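Apolipoproteins are the protein part of the particles that carry cholesterol and triglyceride in blood. The liver makes most of them, and their transcripts are among the most abundant of a hepatocyte. APOB is the backbone of VLDL and LDL, APOA1 and APOA2 build HDL, and the smaller exchangeable proteins APOC1, APOC2, APOC3 and APOE move between particles and set how quickly these are lipolysed and taken up.

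The 10 apolipoprotein genes APOA1, APOA2, APOA4, APOB, APOC1, APOC2, APOC3, APOE, APOH and APOM were chosen by gene name among the 58174 genes with a deposited value. PLC-8024 cells derive from a human hepatocellular carcinoma (HCC). One line of them carried a control vector (PLC-8024-CTR) and the other stably overexpressed GDF1, a secreted ligand of the TGF-β superfamily, after lentiviral transduction and puromycin selection (PLC-8024-GDF1). RNA-seq was available for 1 library of each, in TPM, a transcript level corrected for gene length and scaled to the same total in each library. The 2 libraries are called the control library and the GDF1 library (with GDF1) from here on. The comparison addressed which apolipoprotein transcripts differed once GDF1 was overexpressed.

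In the PLC-8024-GDF1 library, 9 of the 10 apolipoproteins were lower than in PLC-8024-CTR and 7 fell past 2-fold, or 4 once TPM were rescaled to centre the changes of all genes, when APOE also changed sign. Over all genes tested, 63.3% were lower with GDF1 and 9.61% fell past 2-fold. The genes that fell were APOA1, APOA4, APOC2, APOA2, APOM, APOC3 and APOH. APOB was lower by less than 2-fold, and APOE and APOC1, which made up most of the apolipoprotein RNA, had log2 changes of -0.19 and 0.051 (-0.53 and 0.20 with the trend with GC content removed). With 1 library per line no difference has a replicate check, so no test, SE or p-value is given, and the sequencing depth cannot be read from TPM.

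A change is the log2 ratio of TPM + 1 with GDF1 to TPM + 1 in the control library, so that minus 1 or lower is a fall past 2-fold. The pseudocount of 1 makes the change of a gene with low TPM smaller. A minimum of 1 TPM in one or both libraries left 14929 genes, of which 9.61% fell past 2-fold and 4.82% rose past it. All 10 apolipoproteins met that minimum, APOA4 only through PLC-8024-CTR. Without APOA4, 6 of 9 fell past 2-fold.

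As a check of the overexpressed gene, GDF1 was listed at 2.1 and 4.64 TPM in the control and GDF1 libraries. CERS1, whose exons cover the same DNA, was listed at 13.3 and 9612 TPM. Reads of the shared exons could be listed under either gene, so neither entry alone gives the level of GDF1 or of CERS1. The paper reports the overexpression of GDF1 as protein, by western blot. Of the 13 hepatocyte plasma protein genes looked at as markers, all reached 1 TPM in PLC-8024-CTR, led by SERPINA1 with 5308 TPM. ALB, the defining hepatocyte product, was low, with 15.0 TPM in PLC-8024-CTR. The leukocyte gene PTPRC, the endothelial gene VWF and the fibroblast genes COL1A2 and DCN were listed at 0.0001 TPM, which stands for 0 in these files, in both libraries. Other members of the leukocyte and endothelial lists were present. LYZ was at 298 and 214 TPM, CD68 at 33.1 and 13.2 TPM and PECAM1 at 23.2 and 22.2 TPM. Of 6 enterocyte markers 3 were present, with MUC2 at 64.5 and 51.9 TPM, VIL1 at 32.5 and 25.9 TPM and CDX2 at 14.0 and 18.7 TPM, whereas FABP2 and SI were at 0.0001 TPM. Summed, the 6 enterocyte markers had 111 and 96.7 TPM, the 4 leukocyte markers 331 and 227 TPM, the 3 endothelial markers 23.5 and 22.4 TPM and the 5 fibroblast markers 0.579 and 1.36 TPM. In RNA from a bulk culture, fewer cells that express a gene and less RNA per cell cannot be told apart.

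Promoter sequences are shown first for 4 genes, because they contrast 3 neighbours on chromosome 19 that did not move alike with the low-level gene APOA4. The sequences are the 250 bases before the annotated start in RefSeq on GRCh38.p14, 5′ to 3′ on the gene's strand. Capitals mark matches to the motifs searched. The first 3 are APOE (chr19:44905546-44905795, plus strand, the first of 3 starts), APOC1 (chr19:44914422-44914671, plus strand) and APOC2 (chr19:44945801-44946050, plus strand), and the last is APOA4 (chr11:116823305-116823554, minus strand).
APOE: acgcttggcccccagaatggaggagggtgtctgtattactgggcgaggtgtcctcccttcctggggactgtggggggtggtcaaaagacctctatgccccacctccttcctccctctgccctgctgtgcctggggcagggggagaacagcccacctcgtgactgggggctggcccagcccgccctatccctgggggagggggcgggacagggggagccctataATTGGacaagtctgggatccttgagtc
APOC1: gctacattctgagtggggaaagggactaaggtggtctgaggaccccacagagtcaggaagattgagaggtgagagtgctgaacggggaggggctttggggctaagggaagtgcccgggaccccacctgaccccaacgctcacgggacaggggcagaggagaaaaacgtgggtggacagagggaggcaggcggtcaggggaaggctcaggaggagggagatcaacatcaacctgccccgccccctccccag
APOC2: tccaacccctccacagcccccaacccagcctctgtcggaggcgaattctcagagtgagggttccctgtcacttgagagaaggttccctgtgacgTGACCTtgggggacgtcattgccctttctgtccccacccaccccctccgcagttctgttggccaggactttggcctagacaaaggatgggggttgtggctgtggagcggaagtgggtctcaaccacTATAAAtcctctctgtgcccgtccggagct
APOA4: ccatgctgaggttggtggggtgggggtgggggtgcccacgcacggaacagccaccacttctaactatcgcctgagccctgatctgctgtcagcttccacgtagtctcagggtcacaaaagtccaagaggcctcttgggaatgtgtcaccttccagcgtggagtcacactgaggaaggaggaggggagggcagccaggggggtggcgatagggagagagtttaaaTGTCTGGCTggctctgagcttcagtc

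The APOC2 sequence held the TATA box TATAAA from base -30 to -25, where -1 is the base just before the start. It also held the nuclear receptor core motif AGGTCA on the other strand from -156 to -151. The first APOE window held CCAAT on the other strand from -27 to -23. The APOA4 window held the SMAD-type site AGCCAGACA on the other strand from -26 to -18. The APOC1 window held none of the motifs.

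RefSeq promoter windows of 300 bases, which also hold the 50 bases from the start on, were found for 7 of the 10 genes, in 9 windows. APOA1, APOB and APOC3 had no entry. On either strand, TATAAA occurred in 1 of the 9 windows and in 11.5% of all 35116 windows, and CCAAT in 2 of the 9, both of APOE, and in 34.6% of all. AGGTCA occurred in APOC2 alone of the 7 genes and in 13.8% of all windows. AGCCAGACA occurred in APOA4 alone and in 0.288% of all windows. The HNF4A-type sites CAAAGTCCA and CAAAGTTCA, the C/EBP-type site TTGCGCAA and the SMAD-type palindrome GTCTAGAC occurred in none of the 9 windows and in 0.384%, 0.296%, 0.151% and 0.202% of all. No matches of different motifs overlapped. A match is a run of letters in these windows only and was not tested as a binding site.

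**Figure D1:**
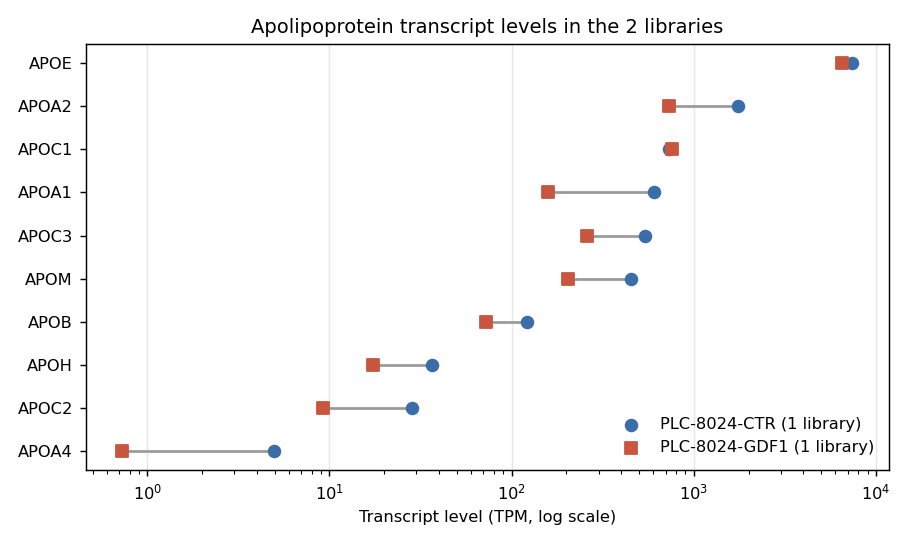
Transcript level in TPM on a log scale (x axis) of the 10 apolipoproteins (y axis, ordered by the level in PLC-8024-CTR). Circles are the PLC-8024-CTR library, squares the PLC-8024-GDF1 library and lines join the pair. APOE (7434 and 6532 TPM) and APOC1 (733 and 759.8 TPM) sit close together, while APOA1 (603 and 158 TPM) and APOA4 (4.97 and 0.727 TPM) lie far apart.

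The structural proteins of HDL fell in the PLC-8024-GDF1 library. APOA1, the main HDL protein and the activator of the cholesterol-esterifying enzyme LCAT, was at 603 TPM in the control library and 158 TPM with GDF1. With the pseudocount of 1, its log2 change of -1.93 was the lowest of the 10, and 1.44% of all genes tested had a lower one. Its TPM was 3.82-fold lower. By the plain ratio APOA4 was the lowest (-2.77, against -1.93 for APOA1). APOA1 (ENSG00000118137) is annotated on GRCh37 at chromosome 11, 116706467 to 116708338, minus strand.

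APOA2 (ENSG00000158874; chromosome 1, 161192082 to 161193421, minus strand), the second most abundant protein of HDL, was at 1754 and 732 TPM, a 2.39-fold lower TPM (log2 change -1.26). APOA2 ranked 84 among all genes by TPM in the control library and 200 in PLC-8024-GDF1, and APOA1 ranked 235 and 851. The ratio of APOA2 to APOA1 TPM was therefore 2.91 in the control library and 4.64 in the other. Both genes fell, APOA1 by more.

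APOM (ENSG00000204444; chromosome 6, 31620193 to 31625987, plus strand) is a lipocalin that carries the signalling lipid sphingosine phosphate on HDL. It was at 455 TPM in the control library and 205 TPM with GDF1 (log2 change -1.15). Of its exon bases 11% overlap BAG6 on the opposite strand, which was at 193 and 221 TPM. Strand use in the counting is not given in the sources used here, so reads of that stretch could belong to either gene. The overlapping gene was slightly higher where APOM was lower.

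APOA4 (ENSG00000110244; chromosome 11, 116691416 to 116694020, minus strand), known mainly as an intestinal protein of chylomicrons and HDL, was the least expressed. It was at 4.97 TPM in the control library and 0.727 TPM with GDF1, a 6.83-fold lower TPM. The pseudocount brought this to a log2 change of -1.79, against -2.77 for the plain ratio. It was the 1 member under 1 TPM in a library.

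Among the regulators of triglyceride lipolysis, the activator and the inhibitor of lipoprotein lipase were both lower. APOC2 (ENSG00000234906; chromosome 19, 45449292 to 45452822, plus strand), the activator, was at 28.5 TPM in the control library and 9.18 TPM with GDF1 (log2 change -1.54). APOC3 (ENSG00000110245; chromosome 11, 116700422 to 116703788, plus strand), the inhibitor, was at 543 and 259 TPM (log2 change -1.07). APOC3 was thus the more abundant of the pair in both libraries and the less changed.

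The value of APOC2 shares exons with a readthrough gene. Of its exon bases 53.5% also belong to APOC4-APOC2 on the same strand, which was at 5.14 and 1.42 TPM (log2 change -1.35). Both entries fell past 2-fold, and added up they changed by -1.58 on the log2 scale. APOC4 itself was listed at 0.0001 TPM in both libraries.

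APOC1 (ENSG00000130208; chromosome 19, 45417504 to 45422606, plus strand), which inhibits cholesteryl ester transfer and receptor uptake of remnants, was the 1 member that was higher. It was at 733 TPM in the control library and 759.8 TPM with GDF1, a log2 change of 0.051. Its pseudogene APOC1P1, a near copy that could share reads, was at 2.57 and 3.60 TPM. APOC1 was 2.93 times as abundant as APOC3 in PLC-8024-GDF1, against 1.35 times in PLC-8024-CTR.

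The ligands for particle uptake lay inside 2-fold, and APOB changed by more than APOE except with the trend with GC content removed. APOE (ENSG00000130203; chromosome 19, 45409048 to 45412650, plus strand), through which remnants are taken up, was at 7434 TPM in the control library and 6532 TPM with GDF1 (log2 change -0.19, 0.020 with TPM rescaled and -0.53 with the GC trend removed). It ranked 11 and 14 among all genes. APOB (ENSG00000084674; chromosome 2, 21224301 to 21266945, minus strand), which holds VLDL and LDL together, was at 122 and 72.4 TPM. Its log2 change of -0.74 (-0.34 with the GC trend removed) lay inside 2-fold, and 17.7% of all genes tested had a lower one.

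APOH (ENSG00000091583; chromosome 17, 64208151 to 64252643, minus strand), a plasma glycoprotein that binds anionic phospholipids and is the main target of antiphospholipid antibodies, was at 36.5 TPM in the control library and 17.4 TPM with GDF1. Its log2 change of -1.03 lay just past 2-fold.

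Added up, the 10 genes took 1.17% of all TPM in the control library and 0.875% in PLC-8024-GDF1. APOE and APOC1 together had 8168 and 7292 TPM, so their sum in PLC-8024-GDF1 was 89.3% of the control level. The 8 other apolipoproteins together had 3546 and 1454 TPM, or 41.0% of the control level. APOE and APOC1 thereby went from 69.7% to 83.4% of the apolipoprotein TPM. In order of level, APOE was first in both libraries, and APOC1 and APOA2 exchanged the next places. These orders carry no spread, so it cannot be said which neighbours differ.

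**Figure D2:**
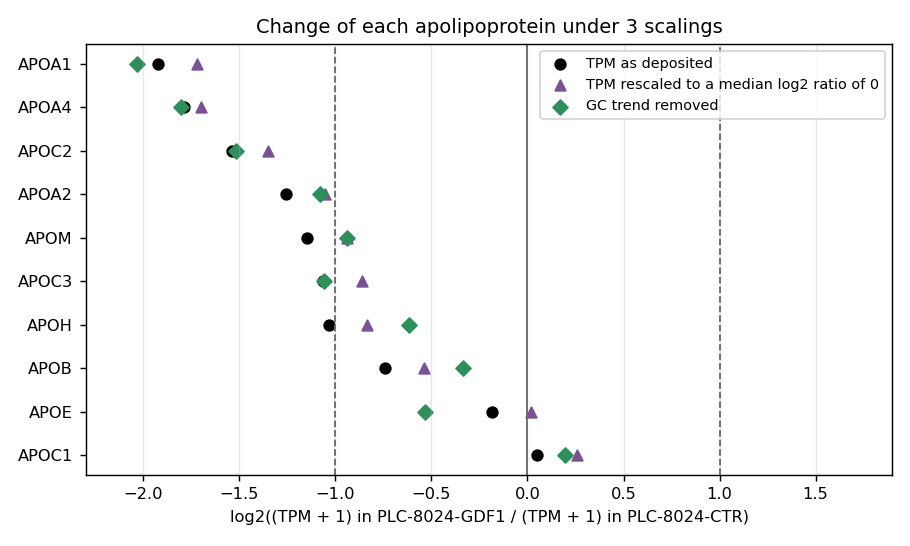
Log2 change of each apolipoprotein (x axis; GDF1 over control library with a pseudocount of 1) from TPM as deposited (circles), after TPM were rescaled to a median log2 ratio of 0 (triangles) and after the trend with GC content was removed (diamonds). Dashed lines mark 2-fold. APOA1, APOA4, APOC2 and APOA2 lie past it under all 3. APOM and APOH do so only as deposited and APOC3 does not when rescaled. Removing the GC trend also recentres the changes of all genes.

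The median log2 change of the 10 apolipoproteins was -1.11, against -0.20 over all 14929 genes tested. The 7 that fell past 2-fold stood against 9.61% of all genes and the 0 that rose against 4.82%. Abundant genes as a whole were not lower. Among the 1507 genes that reached 100 TPM in one or both libraries the median was 0.021, and 6.37% fell and 3.32% rose past 2-fold. Of the 7 apolipoproteins at that level, 4 fell (APOA1, APOA2, APOM and APOC3).

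More genes were lower than higher between these libraries, so TPM were also rescaled to a median log2 ratio of 0 over genes that reached 5 TPM in one or both, which multiplies every PLC-8024-GDF1 value by 1.15. Then 6.85% of all genes fell and 6.97% rose past 2-fold. APOA1 (-1.72), APOA4 (-1.70), APOC2 (-1.35) and APOA2 (-1.05) still fell past 2-fold, while APOM (-0.94), APOC3 (-0.86) and APOH (-0.84) did not. APOE changed sign to 0.020. The median of the 10 was -0.90, against -0.025 over all genes.

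**Figure D3:**
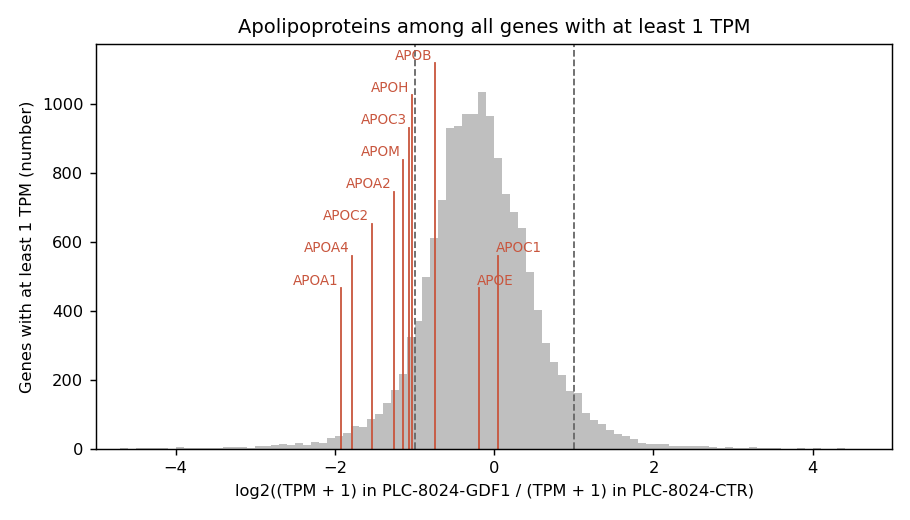
Number of genes with at least 1 TPM (y axis) by log2 change (x axis, GDF1 over control library, bins of 0.1; 7 genes beyond 5 in either direction are not drawn). Red lines mark the 10 apolipoproteins, of which 7 lie left of the dashed line for a fall past 2-fold with TPM as deposited (4 with TPM rescaled); the heights of the red lines only separate the names.

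The change of genes varied with the GC content of the transcript, so the apolipoproteins were set against genes of like GC content. Of 11792 protein-coding genes with at least 1 TPM, divided into 5 equal groups by GC content, the group with the lowest GC had a median log2 change of -0.48 and the group with the highest 0.11. The group with the highest held 5 apolipoproteins (APOA1, APOA4, APOC2, APOC3 and APOE), of which 4 fell past 2-fold, against 4.87% of all genes in that group. APOB and APOH, with 43.5% and 42.9% GC, lay in the second lowest group, in which 13.5% fell. With the GC trend removed their log2 changes were -0.34 and -0.62, and that of APOM was -0.94. Removing the trend also recentred the changes, with a median of 0.044 over all genes tested. With TPM only rescaled, APOM was at -0.94 as well. APOA1 was then at -2.03, APOC3 at -1.06 and APOE at -0.53.

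Position was compared next, because 6 of the 10 genes lie in a pair of clusters. In the chromosome 11 cluster all 3 members, APOA1, APOC3 and APOA4, fell past 2-fold, against 9.61% of all genes tested. With TPM rescaled APOC3 (-0.86) did not, and APOA4 met the minimum of 1 TPM only in PLC-8024-CTR. The added TPM of the cluster, with APOA5 (0.563 and 0.619 TPM), went from 1151 to 418. Within 100 kb, the other genes with at least 1 TPM were ZPR1 (20.5 and 7.83 TPM, log2 change -1.28), SIK3 (9.90 and 5.30 TPM) and BUD13 (10.1 and 8.36 TPM). All 3 were lower in PLC-8024-GDF1, and 1 of them fell past 2-fold, against 63.3% and 9.61% of all genes tested.

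The chromosome 19 cluster was mixed. APOE and its neighbour APOC1 lay inside 2-fold, and APOC2, about 40 kb further on, fell past 2-fold. The flanking genes were mixed too. TOMM40, just before APOE, fell from 153 to 74.4 TPM (log2 change -1.03) and CLPTM1, beyond APOC2, fell from 72.1 to 31.0 TPM (log2 change -1.19). NECTIN2 was at 114 and 108 TPM, RELB at 57.9 and 51.3 TPM, BCAM at 19.4 and 30.4 TPM and CLASRP at 91.1 and 122 TPM.

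**Figure D4:**
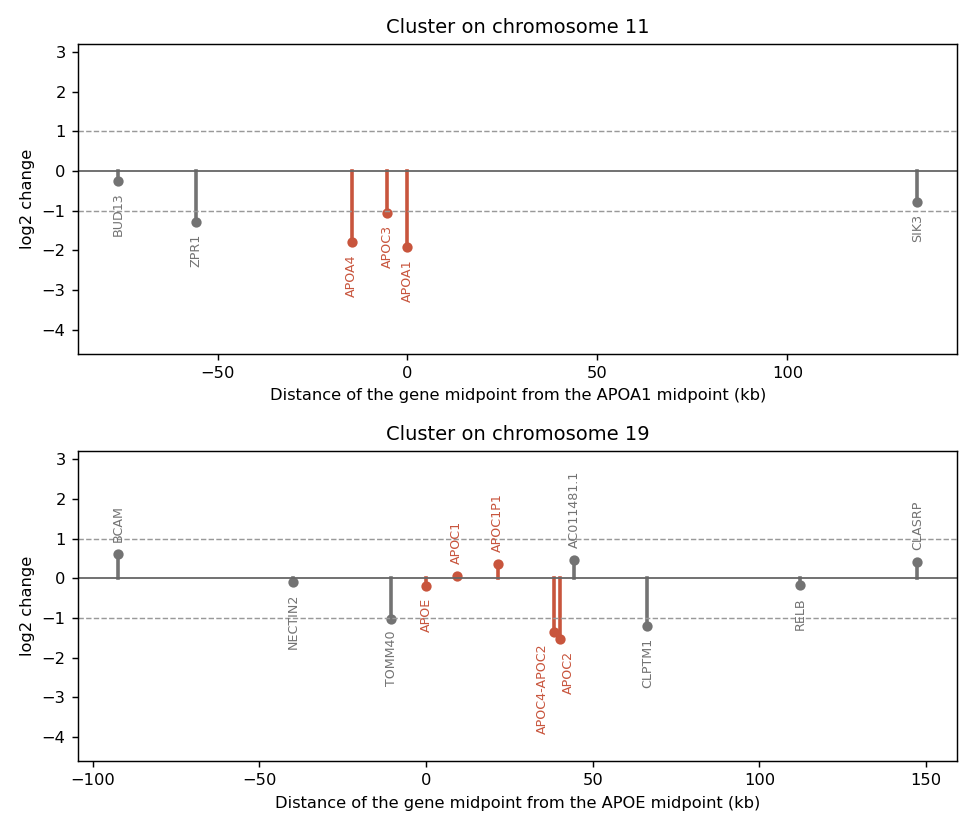
Log2 change (y axis, GDF1 over control library with a pseudocount of 1) of the genes with at least 1 TPM within 100 kb of the apolipoprotein clusters on chromosomes 11 and 19, by the distance in kb of their midpoints from that of APOA1 or APOE (x axis). Apolipoprotein entries are red and other genes grey, and dashed lines mark 2-fold. With TPM as deposited the 3 red genes on chromosome 11 all lie below the lower line (APOC3 not with TPM rescaled). On chromosome 19 APOE and APOC1 lie near 0 and APOC2 at -1.54.

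Among the genes at the single loci, APOA2 had 13 expressed neighbours within 100 kb, with a median log2 change of -0.60. Of the 13, 4 fell past 2-fold. APOM had 16 such neighbours, with a median of -0.12, of which 1 fell and 1 rose. Over all genes tested the median was -0.20, and 9.61% fell and 4.82% rose. APOB had 1 such neighbour and APOH had 2.

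By the nearest levels in the 2 libraries, measured as the Euclidean distance of log2(TPM + 1), APOE was most like RPS2 (7652 and 6690 TPM, distance 0.054), MT-RNR2 (7784 and 7372 TPM) and MT-ATP6 (6673 and 5813 TPM). APOA1 was most like GNAS (584 and 199.8 TPM, distance 0.34), F2 (463 and 198 TPM) and MAGEA4 (426 and 155 TPM). With only 2 libraries such likeness is a description of level and ratio.

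The genes that build and secrete lipoproteins were compared as a list of 15 genes, of which 13 had at least 1 TPM. Of the 13, 4 fell past 2-fold and none rose, against 9.61% and 4.82% of all genes tested. Their median log2 change was -0.32, against -0.20 over all genes tested. MTTP, which loads lipid on to APOB, was at 10.2 TPM in the control library and 3.01 TPM with GDF1 (log2 change -1.49). Its partner subunit P4HB was at 1834 and 2003 TPM. SURF4, a cargo receptor for the export of lipoproteins from the endoplasmic reticulum, fell from 195 to 8.12 TPM (log2 change -4.43).

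The other falls on that list were PLA2G12B (8.81 to 1.92 TPM, log2 change -1.75) and CIDEB (8.83 to 2.92 TPM, log2 change -1.33), both of which act in the lipidation of VLDL. VMP1, an endoplasmic reticulum protein needed for lipoprotein release, was at 36.9 and 48.7 TPM. APOBEC1, which edits APOB RNA in the intestine, and MIA2 were listed at 0.0001 TPM in both libraries.

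Of 14 other genes named as apolipoproteins 4 reached 1 TPM. None of the 4 fell or rose past 2-fold, against 9.61% and 4.82% of all genes tested. Their median log2 change was 0.18, against -0.20 over all genes tested. CLU, also called apolipoprotein J, was the most abundant and was at 450 TPM in the control library and 765 TPM with GDF1 (log2 change 0.76). APOO, a mitochondrial protein in spite of its name, was at 31.1 and 34.5 TPM and APOL2 at 13.0 and 15.2 TPM.

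Of 6 listed genes for other proteins that travel on HDL, 1 fell and 1 rose past 2-fold, against 9.61% and 4.82% of all genes tested. Their median log2 change was 0.042, against -0.20 over all genes tested. SAA4, the constitutive serum amyloid A, fell from 105 to 8.05 TPM (log2 change -3.56). PON1, an HDL esterase, rose from 0.385 to 2.01 TPM (log2 change 1.12) and met the minimum of 1 TPM only in PLC-8024-GDF1. PON3 was at 46.8 and 25.9 TPM and PCYOX1 at 16.9 and 11.5 TPM.

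The listed genes for plasma lipases, lipid transfer and the proteins that control these lipases did not share a direction. Of 11 listed, 6 had at least 1 TPM. Of these 6, 1 fell and 1 rose past 2-fold, against 9.61% and 4.82% of all genes tested. ANGPTL8, an inhibitor of lipoprotein lipase, fell from 90.4 to 17.1 TPM (log2 change -2.33), and LMF1, a lipase maturation factor, rose from 4.28 to 10.05 TPM (log2 change 1.07). Hepatic lipase LIPC was at 296 and 361 TPM and ANGPTL4 at 21.8 and 17.0 TPM. LCAT, the enzyme that APOA1 activates, was at 12.8 and 14.0 TPM.

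Among receptors and their partners, 10 of 13 had at least 1 TPM. Of these 10, 2 fell past 2-fold (1 with TPM rescaled), against 9.61% of all genes tested (6.85% with TPM rescaled). Their median log2 change was -0.26, against -0.20 over all genes tested. SDC1, a proteoglycan that binds remnants, was at 134 and 71.2 TPM, the receptor chaperone LRPAP1 at 163 and 155 TPM and AMN, the partner of cubilin, at 112 and 119.8 TPM. Of 5 genes for cholesterol efflux and HDL uptake, the HDL receptor SCARB1 was at 258 and 189.8 TPM and ABCA1, which lipidates APOA1, at 1.38 and 0.769 TPM. Neither of these fell or rose past 2-fold, against 9.61% and 4.82% of all genes tested.

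Of 28 transcription factors and cofactors known to act on apolipoprotein genes, 24 had at least 1 TPM. Of the 24, 4 fell and 1 rose past 2-fold, against 9.61% and 4.82% of all genes tested. Their median log2 change was -0.18, close to the -0.20 over all genes tested. HNF4A, a nuclear receptor that activates many apolipoprotein genes, was at 11.4 TPM in the control library and 5.15 TPM with GDF1 (log2 change -1.02). FOXA2, a pioneer factor of the liver, fell from 20.4 to 7.70 TPM (-1.30). NR2F2, which can repress HNF4A target genes, fell from 16.5 to 3.90 TPM (-1.84). NR0B2, a corepressor, rose from 2.34 to 5.95 TPM (1.06). With TPM rescaled, 2 of the 24 fell past 2-fold, against 6.85% of all genes tested, and HNF4A (-0.84) no longer passed it. The most abundant of the list, CEBPB (355 and 201 TPM), USF2 (195 and 180.2 TPM) and NR2F6 (164 and 158 TPM), lay inside 2-fold.

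The hepatocyte plasma proteins that are no apolipoproteins were lower in part. Of 13, 6 fell past 2-fold and none rose (4 fell and 1, FGA, rose with TPM rescaled). Over all genes tested 9.61% fell and 4.82% rose (6.85% and 6.97% with TPM rescaled). The median log2 change of the 13 was -0.86, against -0.20 over all genes tested. AHSG fell from 399 to 25.8 TPM (-3.90), TTR from 7.17 to 0.340 TPM (-2.61) and RBP4 from 1251 to 572 TPM (-1.13). AFP, which the paper uses as a marker of liver progenitors, fell from 31.4 to 9.75 TPM (-1.59). By qPCR the paper reports that GDF1 raised its progenitor markers as a group in PLC-8024 cells. It reports that GDF1 lowered its hepatic markers, among them TTR and ALB. The paper also reports this shift for protein, by western blot. HPX fell from 16.3 to 6.59 TPM (-1.19) and ALB from 15.0 to 6.07 TPM (-1.18). The most abundant ones lay inside 2-fold, with SERPINA1 at 5308 and 2915 TPM, AMBP at 2620 and 2491 TPM and FGB at 1991 and 1517 TPM. Among the markers of other cell types, CD68 fell from 33.1 to 13.2 TPM, LYZ was at 298 and 214 TPM and PECAM1 at 23.2 and 22.2 TPM. Their part in the apolipoprotein values was not tested.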

How the data were processed

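RNA-seq was performed on 1 library of PLC-8024-CTR and 1 of PLC-8024-GDF1 cells. Poly(A) RNA was sequenced in paired ends, and per the submitters' notes and the methods the authors used FastQC 0.11.2, Trimmomatic 0.36, HISAT2 2.1.0 with hg19 and StringTie 1.3.3b, and deposited TPM for each gene. The methods name a RefSeq annotation, while the identifiers are from Ensembl. TPM sums to the same total in every library and keeps no depth, so precision is unknown and lowest for genes with few TPM. The samples were grouped by their titles. The members and lists were chosen with earlier results of these data known. Positions and GC content came from GENCODE 44 lifted to GRCh37, which matched 55726 identifiers, and promoters from RefSeq (GRCh38.p14). The pseudocount was 1, the minimum 1 TPM in either library and the threshold 2-fold. The genes named were the 10 apolipoproteins, the overexpressed gene with CERS1 and genes overlapping or next to an apolipoprotein. In each list they were the genes past 2-fold and the 3 most abundant. For the most abundant apolipoprotein (APOE) and the most changed with the pseudocount of 1 (APOA1) they were the 3 nearest genes. Other genes, among them PTPRC, VWF, COL1A2, DCN, FABP2, SI, APOBEC1, MIA2, LCAT, FGA, SAA2 and PLTP, were chosen after their values were seen, and some genes and motifs are not reported here. Alternatives were other pseudocounts, minimums and scalings, removal of the GC trend by lowess (span 0.3), protein-coding genes only and the readthrough gene added to APOC2. Python 3.11.15, numpy 2.4.6, pandas 2.3.3, statsmodels 0.14.6 and matplotlib 3.10.9 were used, and the calculations were tested on simulated data.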

Additional observations from a re-analysis of the deposited data

How the results depend on the processing

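No paired analysis was possible because each line has 1 library. Single changes were judged by direction and side of 2-fold, counts by a move of over 1.5 times. APOA1, APOA2, APOA4 and APOC2 fell past 2-fold under every scaling and pseudocount tried. With TPM rescaled to a median log2 ratio of 0, 4 apolipoproteins fell instead of 7, APOM was at -0.94, APOC3 at -0.86, APOH at -0.84 and APOE at 0.020, and the median of the 10 was -0.90. With TPM rescaled by the upper quartile, 4 fell, APOM was at -0.96, APOC3 at -0.88 and APOH at -0.86, and the median was -0.92. Either rescaling multiplies all PLC-8024-GDF1 values by 1 factor (1.15 and 1.14), which by construction moves changes this near to 2-fold inside it. With the GC trend removed, 5 fell, and APOM was at -0.94 and APOH at -0.62. APOE (-0.53) then had a lower log2 change than APOB (-0.34). The median of the 10 was -0.998 and that of all genes tested 0.044. With at least 5 TPM, 6 fell, since APOA4 was left out. Adding APOC4-APOC2 to APOC2, other pseudocounts and no minimum left the 7 falls. At a pseudocount of 0.1 and by the plain ratio APOA4 (-2.61 and -2.77), not APOA1 (-1.93 in both), had the lowest log2 change.

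In the lists, 2 HDL-associated proteins rose (PON1 and SAA2) with the GC trend removed, by the plain ratio and at a pseudocount of 0.1, and 0 with at least 5 TPM, against 1. The lipase list had 2 that rose (LMF1 and PLTP) under the plain ratio, a pseudocount of 0.1 and either rescaling, against 1. With either rescaling 1 receptor gene fell, against 2, and 1 hepatocyte plasma protein rose (FGA), against 0, as it also did with the GC trend removed. With the median rescaling 2 regulators fell (FOXA2 and NR2F2), against 4. Over all genes tested, 15.5% fell and 7.82% rose at a pseudocount of 0.1, 16.3% and 8.23% by the plain ratio, 5.38% fell with the GC trend removed, and 2.47% and 1.24% with no minimum, against 9.61% and 4.82%. TPM keeps no depth, which limits APOA4 most.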
